A study of Mus musculus with 20 samples.

Results

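The nuclear-encoded subunits of oxidative phosphorylation were examined in mouse bone marrow-derived macrophages during activation, with and without dimethyl itaconate. The genes were taken by symbol, as those of complex I (Ndufa, Ndufb, Ndufc, Ndufs and Ndufv), complex III (Uqcr), complex IV (Cox4i, Cox5, Cox6, Cox7 and Cox8) and ATP synthase (Atp5). Assembly factors (Ndufaf) and pseudogenes were left out. Of the symbols of 22165 genes counted, 81 matched, and 72 of these averaged at least 1 CPM (a count divided by the library total and multiplied by 1000000) over the 20 libraries. These 72 members are 36 of complex I, 7 of complex III, 13 of complex IV and 16 of complex V, and Ndufa4, first assigned to complex I and now placed in complex IV, is counted with complex IV. All cells were wild type, from C57BL/6 mice, grown for 7 days in RPMI with m-CSF, the macrophage growth factor. They received LPS, a bacterial cell-wall component, together with interferon gamma (IFNg), and were taken at 0, 1, 2, 4 and 6 h. Controls (Ctrl) had the stimulus alone, and the other arm (DI) had 250 uM dimethyl itaconate, a cell-permeable ester related to the macrophage metabolite itaconate, for 12 h before it, which makes 10 groups of 2 libraries. The labels name no vehicle and do not say whether the 2 libraries of a group came from separate mice or cultures, so p-values measure the spread between these libraries, which may be technical.

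Oxidative phosphorylation passes electrons from NADH through complex I, and from succinate through complex II, to coenzyme Q, complex III, cytochrome c and complex IV, where oxygen is reduced. Complexes I, III and IV pump protons across the inner mitochondrial membrane, and ATP synthase (complex V) uses the gradient to make ATP. Most subunits are encoded in the nucleus and a small set in mitochondrial DNA. Macrophages activated by LPS and IFNg are known for a shift from respiration towards glycolysis, and itaconate is known to inhibit succinate dehydrogenase. The counts below are of RNA and say nothing of protein or respiration.

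Libraries held 3655977 to 8938983 reads in Ctrl and 3982073 to 6725447 in DI. They read the 3' ends of poly(A) RNA, so CPM is not divided by gene length and levels are compared within a gene unless stated. DI libraries had 11143 to 12356 genes at 0 against 9301 to 10859 in Ctrl, and 333 to 674 genes with 1 to 3 reads against 1370 to 1741. The part of this difference in the results was not tested. All 10 macrophage markers averaged at least 1 CPM in both arms, and their summed level was 3438 to 6093 CPM of library total in Ctrl and 2648 to 4985 in DI. T cell, B cell and erythroid markers summed to at most 18.2 CPM in any library, with Cd3e and Alas2 at 0 in every library. Fibroblast markers summed to 38.5 to 68.7 CPM in Ctrl and 5.30 to 39.7 in DI, neutrophil markers to 246 to 627 and 273 to 529, and dendritic cell markers to 12.6 to 43.4 and 7.24 to 26.3. Their part in the results was not tested.

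The 72 members together took 0.605% ± 0.00828 (SD, n = 2) of all counts in Ctrl at 0 h and 0.635% ± 0.119 in DI at 0 h. In Ctrl the share at 1, 2, 4 and 6 h was 0.537%, 0.430%, 0.436% and 0.433%. In DI it was 0.479%, 0.460% and 0.428% at 1, 2 and 4 h and 0.541% ± 0.0672 at 6 h. All 8 stimulated Ctrl libraries lay below both Ctrl libraries of 0 h, whereas the 6 h DI library at 0.588% lay above the lower DI library of 0 h at 0.550%.

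The same reads ran the other way once libraries were scaled by trimmed means of M values (TMM), which set the level of a typical gene equal between libraries. On that scale the summed level was 4368 ± 3.57 CPM in Ctrl at 0 h and 5504 ± 185 at 6 h, and 4757 ± 692 and 5970 ± 576 in DI. Scaling on library totals moved the median of all genes to log2 changes of -0.34, -0.68, -1.01 and -0.99 at 1, 2, 4 and 6 h in Ctrl, and -0.21, -0.50, -0.73 and -0.65 in DI. Direction over time is therefore stated relative to the typical gene. Both scales are relative within a library and measure neither cell number nor total RNA per cell. In these bulk libraries fewer cells expressing a gene and less of its RNA in each cell cannot be told apart.

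**Figure D1:**
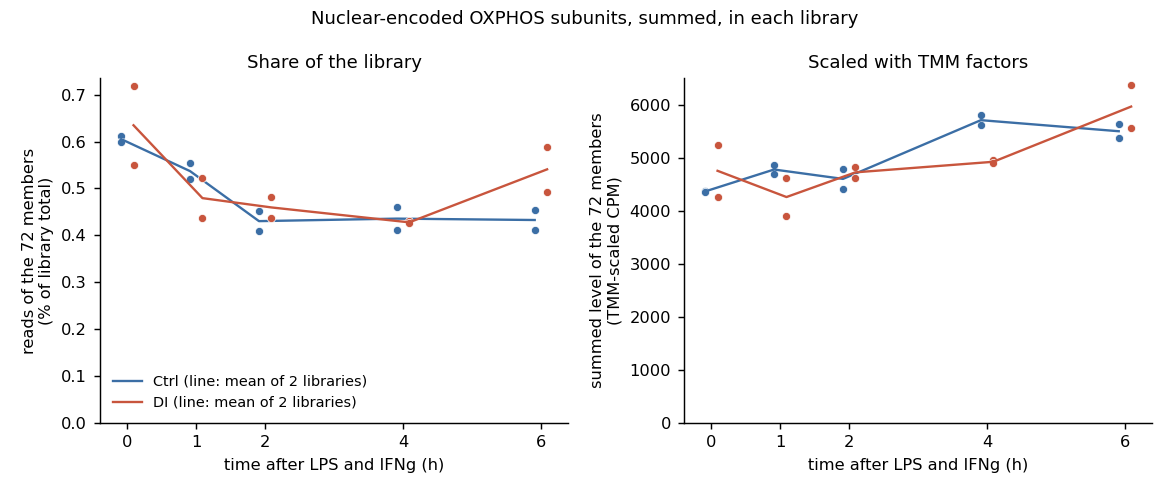
Reads of the 72 members summed in each library, as a percentage of the library total (left) and as TMM-scaled CPM (right), against time after LPS and IFNg in hours. Points are single libraries and lines join group means. The share in Ctrl went from 0.605% at 0 h to 0.433% at 6 h, while the TMM-scaled sum went from 4368 to 5504 CPM.

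A split among the complexes needs no scaling, since each is a share of the same member reads. Complex I held 36.3% and 36.5% of member reads in the Ctrl libraries of 0 h and 32.4% and 31.0% in those of 6 h. In DI it held 34.3% and 39.3% at 0 h and 29.4% and 28.0% at 6 h. In both arms the 0 h and 6 h libraries did not overlap. Complex IV held 27.7% and 27.9% in Ctrl at 0 h against 30.8% and 30.4% at 6 h, and 28.5% and 25.3% against 31.6% and 31.5% in DI. Complex V went from 26.8% ± 0.169 to 28.2% ± 1.03 in Ctrl and from 27.0% ± 0.293 to 29.9% ± 0.338 in DI. Between these times some duplicates lay further apart than these shifts. Complex IV held 26.8% and 33.8% in Ctrl and 28.2% and 34.2% in DI at 2 h, and 31.2% and 26.1% in DI at 4 h. Complex V held 28.9% and 24.8% in DI at 2 h. Complex III ranged from 7.78% to 10.9% over the 20 libraries. These shares are given as a description, with no test.

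**Figure D2:**
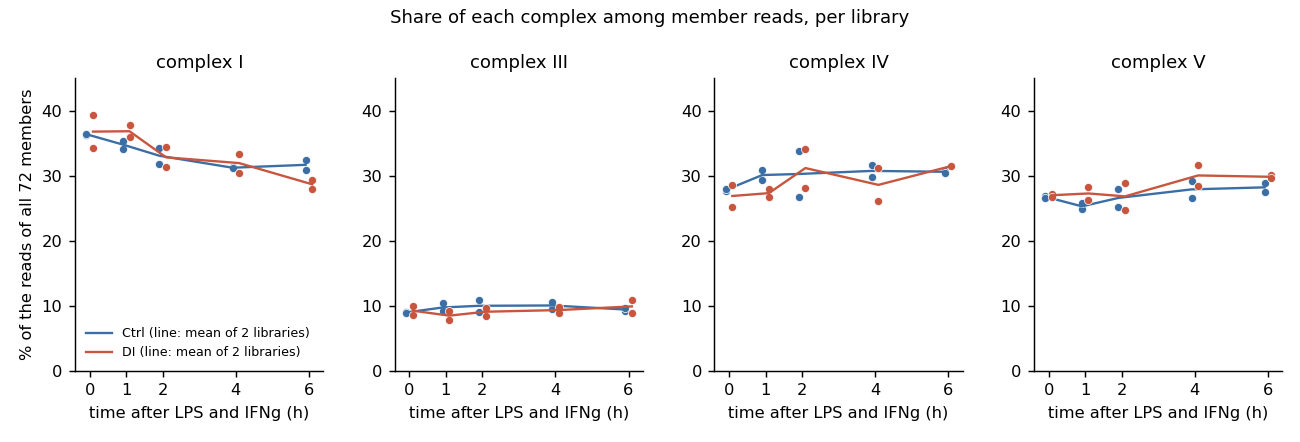
Share of complexes I, III, IV and V among the reads of all 72 members, in percent, against time in hours. Points are single libraries and lines join group means. Complex I was at 36.4% in Ctrl and 36.8% in DI at 0 h and at 31.7% and 28.7% at 6 h, and the points of 0 h and 6 h do not overlap in either arm.

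By complex, the member with the highest CPM was Ndufa10, an accessory subunit of complex I, at 162 CPM over the Ctrl libraries and 155 over the DI libraries. In complex III it was Uqcrc2, a core protein, at 115 and 102 CPM. In complex IV it was Cox7c at 268 and 231 CPM, and in complex V Atp5b, the catalytic beta subunit, at 308 and 324 CPM. At the low end stood Atp5s at 1.65 and 1.01 CPM and Cox6a2 at 3.30 and 1.26 CPM. Just inside the threshold of 1 CPM of library total were Atp5s at 1.51 and Cox6a2 at 2.36. Just outside were Atp5g2 at 0.712 and Cox7a1 at 0.695.

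Where a complex IV subunit has several isoform genes, the widely expressed form carried the reads. Cox4i1 stood at 135 CPM in Ctrl, while Cox4i2, the form known from lung, had 10 reads in all 20 libraries. Cox6a1 stood at 138 CPM beside 3.30 for Cox6a2, the heart and muscle form. Cox6b1 was at 118 CPM and Cox6b2, a testis form, had 16 reads in all. Cox7a2 was at 103 CPM and the muscle form Cox7a1 had 77 reads in all, and Cox8a was at 105 CPM with no read for Cox8b or Cox8c. A count of 0 allows a level of up to 0.336 to 0.821 CPM, depending on the library. Of the genes for subunit c of the ATP synthase ring, Atp5g3 stood at 87.4 CPM and Atp5g1 at 4.62, with 80 reads in all for Atp5g2. Whether reads of Atp5g1 and Atp5g2 were lost in counting was not tested. Uqcrc1, the partner of Uqcrc2 in the complex III core, is known to be expressed in respiring cells at large, unlike the tissue forms above. It had 3 reads, all in 1 library, and whether its reads were lost in counting was not tested, so no level is read from them.

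All 72 members passed the filter on low counts and were tested among 10663 genes with edgeR's quasi-likelihood test, called at a Benjamini-Hochberg adjusted p under 0.05. Few of them differed between DI and Ctrl. At 0 h no member was called, against 3.6% of all genes tested. Only Atp5h had an unadjusted p under 0.05, and DESeq2 and limma-voom called none. At 1 h no member was called, against 4.89% of all genes. At an unadjusted p under 0.05 Ndufc1 was higher and Ndufa13, Uqcrc2 and Atp5l were lower, and DESeq2 called Ndufa13 alone. At 2 h no member was called, against 6.24%, with Ndufs6 lower at an unadjusted p under 0.05 and no call by DESeq2 or limma-voom. At 4 h none was called, against 9.43%, with Ndufa12 and Uqcrfs1 lower at an unadjusted p under 0.05 and Ndufa12 called by DESeq2. At 6 h 1 member, Ndufs4, was lower and none higher, against 8.95% and 5.24% of all genes. Genes named at an unadjusted p were picked after their values were seen. At 0, 1, 2 and 4 h 13.9%, 15.9%, 20.3% and 23.4% of all genes had an unadjusted p under 0.05, DESeq2 called 5.66%, 7.53%, 9.97% and 13.2%, and limma-voom called 3.96%, 5.42%, 5.4% and 8.24%.

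Averaged over the 5 times, 1 member was higher in DI (Atp5h) and 2 were lower (Atp5a1 and Cox6a2), against 12.0% of all genes higher and 17.7% lower. This balance changed with the scaling. On library totals 3 members were higher and 0 lower, against 15.2% and 15.3% of all genes, and with TMM factors from genes of at least 32 CPM 2 were higher and 0 lower, against 14% and 16.1%. The median log2 fold change of the members was 0.11, -0.19, 0.06, -0.22 and 0.17 at 0, 1, 2, 4 and 6 h and -0.03 averaged. Over all genes tested it was -0.05, 0.00, -0.03, -0.06 and -0.03, and -0.06 averaged. The median standard error of a member was 0.33 to 0.34 at a single time and 0.15 for the average. By complex the averaged medians were -0.01 for complex I, -0.07 for complex III, -0.12 for complex IV and -0.03 for complex V.

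**Figure D3:**
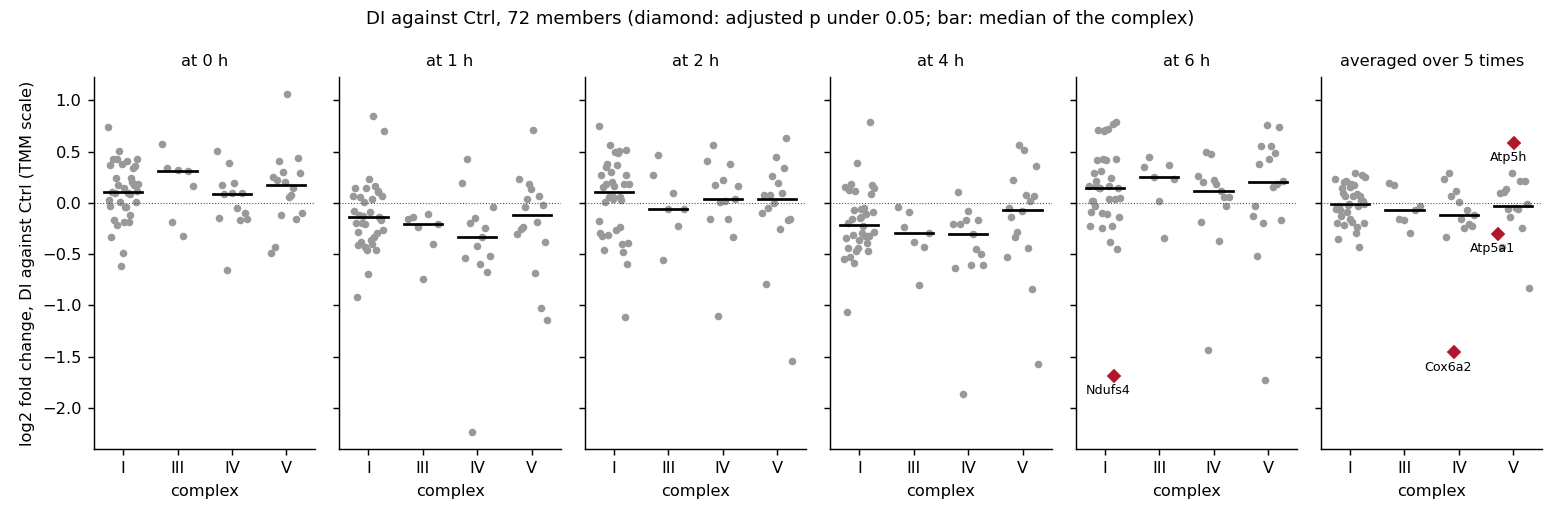
Log2 fold change of DI against Ctrl on the TMM scale for each of the 72 members (points), by complex, at 5 times and averaged over them. Bars are complex medians and diamonds are members with an adjusted p under 0.05. Of the single times only 6 h holds a diamond, Ndufs4 at -1.69.

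Ndufs4, an accessory subunit at the NADH-oxidising end of complex I (chr13:114287795-114388258, minus strand, GRCm38), was the member that differed at 6 h. Its level in Ctrl was 111 and 127 CPM at 0 h, 52.4 and 100 at 1 h, 155 and 88.9 at 2 h, 169 and 147 at 4 h, and 206 and 258 at 6 h. In DI it was 91.7 and 183 CPM at 0 h, 79.8 and 85.1 at 1 h, 115 and 59.1 at 2 h, 88.8 and 164 at 4 h, and 92.1 and 51.8 at 6 h. The arms overlapped at 0, 1, 2 and 4 h and stood apart at 6 h, where both Ctrl libraries were the highest of all 20 and DI replicate 2 the lowest. The log2 fold change at 6 h was -1.69 ± 0.41 (SE, adjusted p = 0.0064, edgeR). Leaving out Ctrl 6 h replicate 2 gave -1.52 (adjusted p = 0.0542), and leaving out DI 6 h replicate 2 gave -1.34 (adjusted p = 0.106). A fit that leaves 1 library in a group takes its spread from the other groups. The difference between the arms in the change from 0 h to 6 h was -1.89 ± 0.57 with an adjusted p of 0.107.

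Atp5h, subunit d of the peripheral stalk of ATP synthase (chr11:115415689-115419962, minus strand), was higher in DI on average over the times. In Ctrl it was at 33.7 and 34.1 CPM at 0 h, 24.3 and 36.8 at 1 h, 37.7 and 24.7 at 2 h, 43.6 and 40.8 at 4 h, and 31.9 and 40.1 at 6 h. In DI it was at 82.4 and 59.4 CPM at 0 h, 53.7 and 47.1 at 1 h, 50.6 and 20.1 at 2 h, 61.2 and 59.4 at 4 h, and 60.2 and 36.2 at 6 h. The DI libraries lay above the Ctrl libraries at 0, 1 and 4 h and the arms overlapped at 2 and 6 h. The averaged log2 fold change was 0.58 ± 0.17 (adjusted p = 0.0100, edgeR). It was the only called member that passed in all 20 fits that left out a library and in all 8 other alternatives, with log2 fold changes of 0.42 to 0.75. Before the stimulus its log2 fold change was 1.06 ± 0.37, with an adjusted p of 0.135.

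Atp5a1, the alpha subunit of the catalytic head, was lower in DI by a small amount. It was at 156 to 265 CPM over the 10 Ctrl libraries, with a median of 205.5, and at 123 to 231 over the 10 DI libraries, with a median of 162.6, so the arms overlapped. Its averaged log2 fold change was -0.31 ± 0.11 (adjusted p = 0.0448). The call held in 7 of the 20 fits without a library, those without Ctrl 2 h replicate 1, Ctrl 4 h replicate 2, Ctrl 6 h replicate 2, DI 0 h replicate 1, DI 1 h replicate 1, DI 2 h replicate 2 or DI 6 h replicate 2. Without Ctrl 2 h replicate 2 the value was -0.27 (adjusted p = 0.114). On library totals it was -0.23 (adjusted p = 0.138).

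Cox6a2 rests on few reads, 280 over all libraries, and 2 DI libraries held none. It was at 1.36 to 4.88 CPM in Ctrl, with a median of 3.25, and at 0 to 2.95 CPM in DI, with a median of 1.17. Its averaged log2 fold change was -1.46 ± 0.54 (adjusted p = 0.0446), which depends on how zeros are handled. The call held in 6 of the 20 fits without a library, those without Ctrl 4 h replicate 2, DI 1 h replicate 2, DI 2 h replicate 1, DI 4 h replicate 1, DI 6 h replicate 1 or DI 6 h replicate 2. Without Ctrl 4 h replicate 1 the value was -1.31 (adjusted p = 0.107), and without DI 6 h replicate 1 it was -2.62. Exons of Itgad lie on the opposite strand of the Cox6a2 locus.

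Over the time course each contrast was set against the 0 h libraries of its own arm, so the 4 contrasts of an arm share them. In Ctrl no member was called at 1 h or 2 h, against 4.07% and 12.2% of all genes. At an unadjusted p under 0.05 Cox7c was higher at 1 h, and at 2 h there were 0 members higher and 0 lower. DESeq2 called none at either time, while limma-voom called Ndufc1 lower at 2 h. Of all genes 10.8% and 22.2% had an unadjusted p under 0.05 at 1 h and 2 h, and DESeq2 called 5.16% and 14.8% and limma-voom 11.6% and 29.7%. At 4 h 2 members were higher (Uqcrfs1 and Cox7a2) and none lower, against 14.7% of all genes higher and 9.58% lower. At 6 h 2 were higher (Uqcrfs1 and Atp5f1) and none lower, against 15.2% and 11.3%. With TMM factors taken from genes of at least 32 CPM the calls at 6 h turned to 0 higher and 2 lower, against 11.8% and 17.3%, while limma-voom gave 10 higher and 3 lower, against 21.9% and 20.8%. The median of the members was 0.08, 0.02, 0.31 and 0.19 at 1, 2, 4 and 6 h, beside -0.03, -0.11, -0.15 and -0.17 for all genes tested.

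In DI no member was called at 1, 2 or 4 h, against 3.59%, 11.0% and 18.7% of all genes. At an unadjusted p under 0.05 Ndufb10 and Uqcr10 were lower at 1 h and Ndufb3 and Ndufs5 at 4 h. At 2 h Atp5f1 was higher and Atp5mpl, Ndufv2, Ndufs5 and Atp5h were lower at that level. DESeq2 called none at 1 and 2 h and Ndufb3 and Ndufs5 lower at 4 h, and limma-voom called none at these times. Of all genes 13.4%, 23.4% and 31.3% had an unadjusted p under 0.05 at 1, 2 and 4 h, DESeq2 called 5.21%, 14.5% and 23%, and limma-voom called 1.71%, 5.76% and 9.89%. At 6 h 4 members were higher (Uqcrfs1, Atp5g3, Cox6a1 and Atp5a1) and none lower, against 11.2% and 8.91%. The medians were -0.29, -0.02, -0.08 and 0.24, beside 0.02, -0.05, -0.12 and -0.10 for all genes.

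All of these rises were relative to the typical gene. On library totals no member was higher in any of the 8 contrasts, and the numbers lower were 0, 5, 12 and 18 at 1, 2, 4 and 6 h in Ctrl and 0, 7, 19 and 8 in DI. All genes called lower on that scale came to 1.24%, 15.4%, 35.8% and 34.6% in Ctrl and 0.638%, 11.4%, 25.6% and 22.2% in DI, and those called higher to 2.6%, 5.83%, 7.89% and 8.34% in Ctrl and 2.3%, 5.26%, 6.85% and 6.77% in DI. The member medians there were -0.22, -0.55, -0.56 and -0.62 in Ctrl and -0.54, -0.48, -0.71 and -0.33 in DI. With TMM factors taken from genes of at least 32 CPM the Ctrl medians at 2, 4 and 6 h were -0.17, -0.03 and -0.12. On library totals the Ctrl medians at 1, 2, 4 and 6 h lay above the medians of all genes on the same scale, whereas in DI at 1 h the member median of -0.54 lay below the -0.21 of all genes. By complex, the TMM-scaled median at 6 h was -0.06 for complex I in Ctrl and 0.03 in DI, beside 0.43 and 0.53 for complex IV and 0.25 and 0.44 for complex V.

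Uqcrfs1, the Rieske iron-sulfur protein of complex III (chr13:30540308-30545362, minus strand), was called in both arms. In Ctrl it was at 37.4 and 30.3 CPM at 0 h, 33.1 and 32.8 at 1 h, 37.2 and 39.7 at 2 h, 76.1 and 64.8 at 4 h, and 65.5 and 65.8 at 6 h. In DI it was at 25.6 and 28.5 CPM at 0 h, 33.0 and 28.2 at 1 h, 54.0 and 28.1 at 2 h, 44.9 and 36.1 at 4 h, and 46.2 and 57.8 at 6 h. The 4 Ctrl libraries of 4 h and 6 h lay above every other library. Log2 changes from 0 h were 1.05 ± 0.32 at 4 h in Ctrl (adjusted p = 0.0152), 0.95 ± 0.32 at 6 h in Ctrl (adjusted p = 0.0269) and 0.94 ± 0.32 at 6 h in DI (adjusted p = 0.0387). On library totals they were 0.19, 0.13 and 0.38, none of them called. The 4 h call held without Ctrl 4 h replicate 2 and not without Ctrl 0 h replicate 1 or 2 or Ctrl 4 h replicate 1 (adjusted p up to 0.164). The 6 h call in Ctrl held without none of its 4 libraries (adjusted p up to 0.221), and the call in DI only without DI 6 h replicate 1 (up to 0.187 without the others).

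Each of the other rises was below 1 on the log2 scale. Cox7a2 was at 84.7 and 71.3 CPM in Ctrl at 0 h and 126 and 158 at 4 h (0.86 ± 0.32, adjusted p = 0.0490), a change that was -0.01 on library totals. Atp5f1, subunit b of the peripheral stalk, was at 55.2 and 48.3 CPM in Ctrl at 0 h and 105 and 87.9 at 6 h (0.90 ± 0.31, adjusted p = 0.0346). In DI Atp5g3 was at 103 and 72.9 CPM at 0 h and 152 and 153 at 6 h (0.79 ± 0.26, adjusted p = 0.0352). Cox6a1 was at 141 and 99.9 CPM and then 199 and 212 (0.77 ± 0.27, adjusted p = 0.0407). Atp5a1 was at 134 and 123 CPM and then 201 and 231 (0.75 ± 0.26, adjusted p = 0.0403). The calls of Cox7a2, Atp5f1 and of Atp5a1 in DI were lost without any 1 of their 4 libraries, with adjusted p of up to 0.293, 0.215 and 0.172. Those of Atp5g3 and Cox6a1 held without DI 0 h replicate 1 alone and reached 0.26 and 0.281 without DI 0 h replicate 2.

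**Figure D4:**
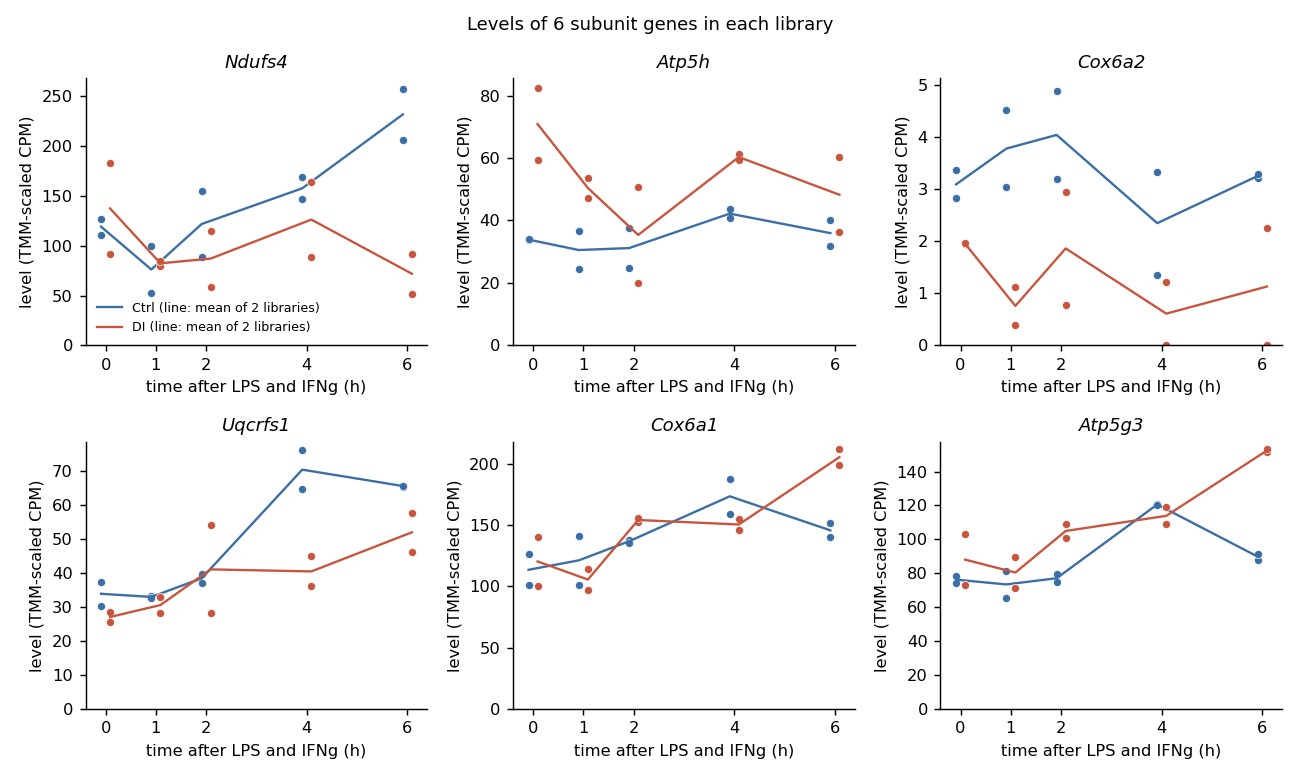
Levels of 6 called members in each library, in TMM-scaled CPM from 0, against time in hours. Points are single libraries and lines join group means. Ndufs4 at 6 h was at 206 and 258 CPM in Ctrl and 92.1 and 51.8 in DI, and Uqcrfs1 in Ctrl went from 37.4 and 30.3 CPM at 0 h to 65.5 and 65.8 at 6 h.

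Whether the members responded differently to the stimulus after dimethyl itaconate was tested as the DI change from 0 h minus the Ctrl change. No member was called at 1, 2, 4 or 6 h, against 0.253%, 0.356%, 0.76% and 1.55% of all genes. At an unadjusted p under 0.05 the counts were 1, 1, 2 and 1, all lower, namely Uqcrc2, Ndufs6, Ndufa1 with Ndufa12, and Ndufs4. DESeq2 called Ndufs4 at 6 h, its only call of a member in these 4 contrasts, and limma-voom called none. Of all genes 4.86%, 7.55%, 10.1% and 11.2% had an unadjusted p under 0.05, DESeq2 called 0.478%, 1.12%, 1.78% and 3.06%, and limma-voom called 0.131%, 0.253%, 0.497% and 1.02%. The member medians were -0.32, -0.05, -0.34 and 0.05, beside 0.05, 0.02, -0.02 and 0.03 for all genes, and 59, 39, 59 and 33 of the 72 members lay below 0. On library totals the member medians were -0.26, 0.07, -0.09 and 0.31, beside 0.11, 0.14, 0.23 and 0.29 for all genes. The counts below 0 are of the TMM scale and moved with the scaling. The share of all genes below 0 is not given beside them. Members of a contrast come from the same libraries, so these are not counts of independent values. Of the 36 members of complex I, 29, 17, 28 and 18 lay below 0 on the TMM scale and 28, 12, 22 and 8 on library totals. The 4 contrasts share the 0 h libraries of both arms.

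Ndufa4 and its paralog AA467197 followed different courses. AA467197 is the mouse gene for a small mitochondrial protein of complex IV related to Ndufa4. Ndufa4 was at 162 and 182 CPM in Ctrl at 0 h and 215 and 157 at 6 h, and at 183 and 125 and then 205 and 182 in DI. It was not called in any of the 18 contrasts, and its averaged difference between DI and Ctrl was -0.12 ± 0.13. AA467197 was at 39.6 and 38.1 CPM in Ctrl at 0 h, 341 and 330 at 2 h, 1519 and 1330 at 4 h, and 1802 and 2075 at 6 h. In DI it was at 13.1 and 26.1, 301 and 202, 555 and 343, and 658 and 357 at the same times. Every stimulated library of 2 h or later lay above all libraries of 0 h. The DI libraries lay below the Ctrl libraries at 2, 4 and 6 h, and also at 0 h, before the stimulus. Its log2 change from 0 h to 6 h was 5.64 ± 0.44 in Ctrl (adjusted p = 3.74e-10) and 4.68 ± 0.42 in DI (adjusted p = 6.57e-09). Between DI and Ctrl at 6 h the log2 fold change was -1.93 ± 0.37 (adjusted p = 0.000669). These directions held on library totals, at 4.82, 4.15 and -1.72. In the test of the difference between the arms in the change from 0 h, AA467197 was not among the genes called.

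**Figure D5:**
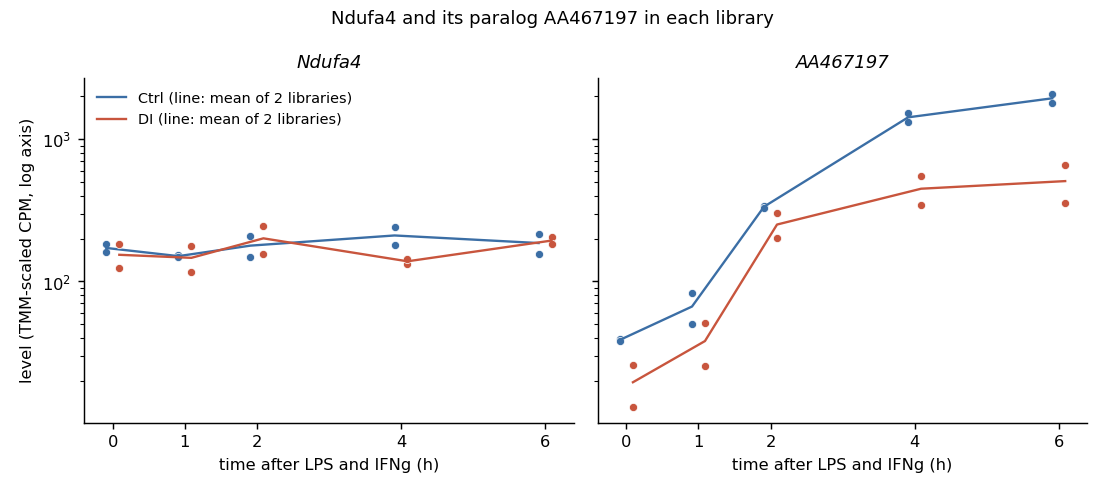
Levels of Ndufa4 and AA467197 in each library, in TMM-scaled CPM on a log axis, against time in hours. Points are single libraries and lines join group means. AA467197 in Ctrl went from 39.6 and 38.1 CPM at 0 h to 1802 and 2075 at 6 h, while Ndufa4 lay between 116 and 247 CPM in all 20 libraries.

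On the TMM scale most members kept within a 2-fold range across the 10 groups, and ranges on library totals are not given here. The ratio of the highest to the lowest group mean was under 2 in 51 of 72 members (70.8%), against 12.5% of all genes tested and 22.5% of those with a mean of at least 32 CPM. Ndufa2 had the lowest ratio, 1.37. The highest ratios were in Atp5s (7.98), Atp5g1 (6.91) and Cox6a2 (6.62), all under 5 CPM in mean, followed by Ndufs4 (3.22) and Uqcrfs1 (2.61). The median coefficient of variation between the 2 libraries of a group was 12.6% for members in Ctrl and 21.4% in DI, beside 19.0% and 31.99% for all genes tested.

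Among the mitochondrially encoded subunits, which share the complexes with the members, all 13 were tested. In DI at 6 h against 0 h 7 were higher and 1 lower, against 11.2% and 8.91% of all genes. Their median was 1.14 on the TMM scale and 0.58 on library totals. mt-Nd1, a core subunit of complex I, was at 883 and 636 CPM at 0 h and 2206 and 1867 at 6 h (1.42 ± 0.35, adjusted p = 0.00429), and mt-Nd1 also differed between DI and Ctrl at 6 h (1.20 ± 0.34, adjusted p = 0.0197). mt-Co3 and mt-Nd3 were higher in DI than in Ctrl at 6 h too, at 1.00 ± 0.30 and 1.20 ± 0.39. The 6 h calls between arms held in 1 of 4 fits without a library for mt-Nd1 and for mt-Co3 and in 0 of 4 for mt-Nd3. Ctrl also had calls against 0 h, among them mt-Co3 and mt-Atp6 at 4 h and mt-Nd4 and mt-Nd4l at 6 h. How many of the 13 were called in Ctrl is not given here, so calls over time are not read as particular to DI. mt-Nd6 was lower than at 0 h in Ctrl at 1, 2, 4 and 6 h. By 6 h it had gone from 38.4 and 155 CPM to 11.1 and 10.5 (-3.16 ± 0.73). The libraries of 0 h, shared by these 4 contrasts, lay far apart. Without Ctrl 0 h replicate 2 the value of mt-Nd6 at 6 h was -1.84 (adjusted p = 0.124) and it was called at no time, and without replicate 1 the value was -3.85. The summed CPM of mitochondrially encoded subunits was higher in replicate 1 than in replicate 2 in all 10 groups, and the part of this in the results was not tested. Reads of mitochondrially encoded subunits were 2.32 to 3.25 times those of the 72 members over the Ctrl libraries and 2.26 to 4.23 times over the DI libraries.

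Other nuclear genes that serve the complexes were taken from pathway lists. Their counts at 6 h stand beside 15.2% of all genes higher and 11.3% lower in Ctrl and 11.2% and 8.91% in DI. Of 18 complex I assembly factors tested, 3 were lower at 6 h in Ctrl and 5 in DI, and none was higher. Ndufaf4 went from 31.4 and 39.8 CPM to 7.52 and 8.97 in Ctrl (-2.10 ± 0.40) and from 38.7 and 61.1 to 14.2 and 11.0 in DI (-1.98 ± 0.38). Of 32 assembly factors of complexes II to V, 3 were higher and 3 lower at 6 h in Ctrl, and 1 and 3 in DI. Sco1, a copper chaperone of complex IV, went from 26.3 and 19.7 CPM to 259 and 243 in Ctrl (3.45 ± 0.38) and was lower in DI at 6 h (-2.88 ± 0.37, adjusted p = 6.14e-06). Of 10 other subunits and carriers, Cycs, which is cytochrome c, was higher in Ctrl at 6 h (1.22 ± 0.38), and Atpif1, the inhibitor of ATP synthase, was higher in DI than in Ctrl at 6 h (1.16 ± 0.34). The calls of Cycs and Atpif1 each held in 1 of 4 fits without a library. Of 12 genes of coenzyme Q synthesis 1, Coq10a, was lower at 6 h in both arms, with the call kept in 0 of 4 fits without a library in Ctrl and 1 of 4 in DI. The 7 tested complex IV paralogs and supercomplex genes include 4 members, and outside those Higd1a was higher at 6 h in both arms, at 1.02 ± 0.32 in Ctrl and 1.26 ± 0.32 in DI. The calls of Higd1a held in 1 and 2 of 4 fits without a library.

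Of 16 genes listed as regulators of mitochondrial biogenesis, a list that also holds Hif1a, 3 were higher and 1 lower at 6 h in each arm. Of all genes 15.2% were higher and 11.3% lower in Ctrl, and 11.2% and 8.91% in DI. Ppargc1b, a coactivator of mitochondrial genes, went from 8.72 and 10.5 CPM to 85.2 and 103 in Ctrl (3.30 ± 0.47) and from 7.95 and 14.5 to 47.1 and 58.6 in DI (2.22 ± 0.46). Hif1a, a regulator of the response to low oxygen, rose in both arms by 3.50 ± 0.29 and 1.89 ± 0.28. Gabpb1, a subunit of the factor GABP, was higher in Ctrl at 6 h (1.32) and Esrra in DI (1.27). Myc was lower in both arms, at -2.56 ± 0.64 and -2.70 ± 0.56. On library totals these 5 genes kept the sign of their changes at 6 h, and those of Gabpb1 and Esrra were not called.

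Promoters of the members were searched for sites of factors known to act on respiratory genes, a feature that the rule did not use. RefSeq start sites of GRCm38.p6 gave 63 windows of 250 bases before the start for 58 of the 72 members, and 32851 windows for all genes. The letters searched, on both strands, were CCGGAAG for GABPA, GCGCA followed by any base and GCGC for NRF1, AAGATGGC for YY1, and TGAC followed by any 3 bases and GCA for NRF2, the last named for the antioxidant regulator. GABPA letters stood in 17.5% of member windows and 6.91% of all windows, and NRF1 letters in 17.5% and 3.74%. YY1 letters stood in 1.59% and 1.57%, and NRF2 letters in 1.59% and 2.48%. The windows of all genes include genes not tested for expression here, and the differences in share were not tested. Of 6 called members whose windows were read, 2 hold any of these letters and 4 (Atp5g3, Cox7a2, Ndufs4 and Uqcrfs1) hold none. The windows with matches and 1 without are shown for contrast, with matches in capitals. Atp5h, at chr11:115419920-115420169, and Cox6a1, at chr5:115348959-115349208, hold both NRF1 and GABPA letters, and Uqcrfs1, at chr13:30545317-30545566, holds none of the 4. All are on the minus strand and are written 5′ to 3′.
Atp5h: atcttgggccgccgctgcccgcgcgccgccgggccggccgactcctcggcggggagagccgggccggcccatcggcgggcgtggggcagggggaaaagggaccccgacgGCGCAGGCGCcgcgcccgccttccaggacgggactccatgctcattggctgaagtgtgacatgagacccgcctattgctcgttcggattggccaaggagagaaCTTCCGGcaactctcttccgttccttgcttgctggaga
Cox6a1: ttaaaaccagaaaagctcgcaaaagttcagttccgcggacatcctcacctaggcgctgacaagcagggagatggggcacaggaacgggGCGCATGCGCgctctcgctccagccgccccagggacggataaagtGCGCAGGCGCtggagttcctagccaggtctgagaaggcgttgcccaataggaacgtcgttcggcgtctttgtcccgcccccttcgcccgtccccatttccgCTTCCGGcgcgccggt
Uqcrfs1: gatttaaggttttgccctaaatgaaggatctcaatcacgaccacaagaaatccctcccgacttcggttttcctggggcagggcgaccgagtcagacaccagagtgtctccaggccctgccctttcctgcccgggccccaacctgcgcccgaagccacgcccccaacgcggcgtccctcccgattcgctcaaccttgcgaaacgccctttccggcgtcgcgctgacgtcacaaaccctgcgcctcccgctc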

How the data were processed

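RNA of 20 libraries was measured by sequencing of 3' ends with barcoded oligo-dT primers into strand-specific libraries pooled by Actb, per the labels' protocols, which name no molecular identifiers. The highest level allowed for a gene without reads therefore covers counting error only. Values after ± are SDs or standard errors and reflect the spread between libraries. STAR, HTSeq, DESeq2 and the mm10 build are named in the submitters' processing notes. The table deposited by the authors holds raw counts per Ensembl gene, and whether they were counted by strand is not given in the sources used here. Symbols came from GENCODE M21 (GRCm38), which matched 21745 of 22165 genes. Exons of another gene overlap 20 members on the opposite strand and 2 on the same strand (Ndufb2 and Ndufb8), and 5 members have a copy named as a pseudogene, so their counts are less certain.

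In R 4.3.3, edgeR 4.0.16 (filterByExpr by group, TMM, glmQLFit with robust, 1 coefficient per group over all 20 libraries) tested 10663 genes in 18 contrasts, with Benjamini-Hochberg adjustment within each. Standard errors come from the F statistic. Levels are TMM-scaled CPM, and library-total values are named as such. DESeq2 1.42.0 and limma 3.58.1 served as alternatives, beside other scalings, no filter, a replicate block and leaving out libraries. The edgeR step was tested on simulated data. Members, lists and naming rule were all chosen with earlier results of these data known. Named in each contrast are up to 4 called members that rose most and 4 that fell most, per complex the member with the highest level, genes with isoforms or paralogs, AA467197, and up to 3 genes per pathway list by p. Genes named outside it were chosen after their values were seen. Promoters are RefSeq's (GRCm38.p6).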

Additional observations from a re-analysis of the deposited data

Results flagged for a closer look

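In 3 genes of the pathway lists, none of them a member, the change from 0 h differed between the DI and Ctrl arms in edgeR's test of that difference. Ttc19, a factor of complex III, had a response difference of 2.74 at 4 h on the log2 scale (adjusted p = 0.0217), with levels of 11.9 and 15.3 CPM at 0 h and 6.39 and 7.02 at 4 h in Ctrl, and 5.13 and 10.8 and then 24.6 and 28.9 in DI. Sco1 had a response difference of -2.48 at 6 h (adjusted p = 0.00973), with 38.4 and 29.7 CPM in DI at 6 h beside 259 and 243 in Ctrl. Hif1a had a response difference of -1.61 at 6 h (adjusted p = 0.0297), with 187 and 231 CPM in DI at 6 h beside 758 and 517 in Ctrl, and on library totals its adjusted p was 0.0745. The call held in 2 of the 8 fits without a library for Ttc19, in 6 of 8 for Sco1 and in 2 of 8 for Hif1a.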

How the results depend on the processing

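Among members, only the call of Atp5h over the averaged times passed in every fit run. Counts of called members under another choice were as follows where they moved by over 1.5 times, each with the share of all genes called. On library totals, a scaling chosen after seeing that TMM factors fall with time, they were 3 for DI against Ctrl at 6 h (2 higher, 14.1%), and, all lower, 5, 12 and 18 in Ctrl at 2, 4 and 6 h (21.2%, 43.7% and 42.9%) and 7, 19 and 8 in DI (16.7%, 32.4% and 29%), and Cox7a2 in Ctrl at 4 h turned to -0.0059. TMM factors from genes of at least 32 CPM gave 3 for DI against Ctrl at 6 h (2 higher, 14%), 0 in Ctrl at 4 h (28%), and 2, both lower, and 0 in DI at 4 and 6 h (20.7% and 21.2%). With no filter the counts were 1 for DI against Ctrl at 4 h (8.28%), 1 and 1 in Ctrl at 1 and 4 h (3.48% and 18.3%), 2 in DI at 6 h (15.4%) and 1 for the response difference at 6 h (1.83%). DESeq2 gave 1, 1 and 2 for DI against Ctrl at 1, 4 and 6 h (7.53%, 13.2% and 17.9%) and 7 averaged (2 higher, 33.1%), 6 in Ctrl at 4 h (all higher, 28.1%), 2 and 8 in DI at 4 and 6 h (0 and 7 higher, 23% and 24.2%), and 1 for the response difference at 6 h (3.06%). limma-voom with weights gave 1, 16 and 13 in Ctrl at 2, 4 and 6 h (0, 16 and 10 higher, 29.7%, 43.7% and 42.7%) and 0 in DI at 6 h (10.7%). Leaving out together DI replicate 2 of 2, 4 and 6 h, the 3 libraries in which most genes were at 0, the counts were 1 and 0 for DI against Ctrl at 0 and 6 h (5.6% and 12.4%), 4 and 4 in Ctrl at 4 and 6 h (all higher, 30.9% and 32%), and 1, 1 and 0 in DI at 1, 2 and 6 h (5.08%, 9.83% and 18.8%). Leaving out 1 library at a time gave 0 to 1 for DI against Ctrl at 1 h and at 2 h, 0 to 2 at 6 h and 1 to 5 averaged, 0 to 1 in Ctrl at 2 h and at 4 h and 0 to 0 at 6 h, 0 to 2 in DI at 2 h and 0 to 7 at 6 h, and 0 to 1 for the response difference at 6 h. Over all genes the deviations of same-numbered libraries had correlations of -0.143 to 0.113 in 45 pairs of groups, 2 of them over 0.1, so the numbers were not taken to pair the samples. Some summed measures did go with the number: in DI replicate 1 had fewer genes at 0 and a higher member sum in 5 of 5 groups, and mitochondrially encoded reads were higher in replicate 1 in 10 of 10 groups. With the replicate number as a block the count in DI at 6 h was 5 in place of 4, and no count moved by over 1.5 times. Of the named genes' values under settings other than leaving out a library, 2872 kept their side of the threshold, 125 lost their call and 32 gained one. A further 1, with a call under at least 1 of the 2 settings compared, changed sign. Sign changes of values called under neither setting were not counted and lie among the 2872. The cause of these moves was not tested. The member medians changed sign in Ctrl at 1, 2, 4 and 6 h both on library totals, from 0.31 to -0.56 at 4 h, and with factors from genes of at least 32 CPM, to -0.03 at 4 h. On library totals they also did so in DI at 6 h, from 0.24 to -0.33, and under both in the treatment average and in the response difference at 2 h. With 2 libraries a group and a median standard error of 0.33 to 0.34, small changes of single members were not detectable.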
